A study of Mus musculus with 6 samples.

Results

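The genes described here are those of glycolysis, the pentose phosphate pathway and the oxygen-sensing (hypoxia) response in thymocytes of the mouse, which develop into T cells. A fixed list of 34 gene symbols was matched to the annotation of GRCm38, which gave 35 of the 55536 genes in the count table because Aldoa has 2 identifiers. All 35 passed the filter on low counts, as did 18690 genes in all. The libraries were 3 labelled Il3ra-/-, where the gene for the interleukin-3 receptor alpha subunit is knocked out, and 3 labelled Il3ra+/+ (wildtype), 1 library per mouse, in steady state and with no treatment. The labels state no age, sex or strain and do not say which part of the gene was deleted. The design asks how thymocytes of both genotypes differ. Levels are given as CPM, read counts scaled to a common library total with TMM normalisation, and levels of different genes are compared as CPM per kilobase (kb) of exon.

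Glycolysis splits glucose into pyruvate, and fermenting cells pass pyruvate on to lactate, which leaves through monocarboxylate transporters. The pentose phosphate pathway branches off at glucose 6-phosphate and supplies NADPH and ribose for nucleotide synthesis, which dividing cells need. The transcription factor HIF-1 raises many of these genes when oxygen is low, and prolyl hydroxylases mark its alpha subunit for destruction when oxygen is present. In the thymus, the dividing early thymocytes are known to use more glucose than the resting double-positive cells.

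Total counts were 59135254 to 82684219 in the libraries labelled Il3ra-/- and 55747682 to 66534218 in the Il3ra+/+ libraries. Il3ra, the targeted gene, had 481, 673 and 514 counts in the libraries labelled Il3ra-/-, against 465, 376 and 399 in the Il3ra+/+ libraries. It was thus not lower in the libraries labelled Il3ra-/- (edgeR adjusted p = 0.585), and directions below follow the labels. A sum over all exons does not show whether a part is missing. The 10 thymocyte markers were all detected, with a summed level of 10221 to 10849 CPM in the libraries labelled Il3ra-/- and 11536 to 12923 CPM in the Il3ra+/+ libraries. Xist was high in replicate 1 of each genotype (128236 counts in the library labelled Il3ra-/- and 88078 in the Il3ra+/+ library). In the others it had 8 to 57 counts, so each genotype held 1 Xist-high library. The Y-linked genes Kdm5d, Eif2s3y, Uty and Ddx3y had 0 to 5 counts in the Xist-high libraries and 1724 to 11226 in the others. By these counts the Xist-high libraries were female and the others male. In replicate 3 labelled Il3ra-/- the 6 neutrophil markers summed to 334 CPM, against 26.7 to 84.1 CPM in the other 5 libraries.

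No gene of the set passed the test between the genotypes. With edgeR (quasi-likelihood, Benjamini-Hochberg over all tested genes) 0 of 35 were called, beside 0.091% of all tested genes, 0.0161% with higher and 0.0749% with lower levels in the libraries labelled Il3ra-/-, and the smallest adjusted p was 0.165. At an unadjusted p under 0.05 stood 5 members, or 14.3%, against 14.6% of all tested genes. These were Slc16a1, Hk2, Tpi1 and Tkt with higher levels in the libraries labelled Il3ra-/- (8.01% of all tested genes lay on that side), and Ldhb with lower levels (6.6% of all). The same 5 had an unadjusted p under 0.05 by DESeq2 and by limma-voom, beside 8.52% and 14.3% of all genes with a p-value in those fits. DESeq2 called 1 member, Slc16a1 (adjusted p = 0.0389), beside 3.82% of the genes it tested, and limma-voom called 0. The genotypes did not overlap in 5 members (higher in the libraries labelled Il3ra-/- for Slc16a1, Hk2 and Aldoc, lower for Gpi1 and Ldhb), 14.3% of the set, against 20.3% of all tested genes, 10.9% on the higher and 9.38% on the lower side. The median log2 fold of the 35 was 0.037, with quartiles of -0.052 and 0.18, against a median of 0.0082 and quartiles of -0.16 and 0.21 over all tested genes. Fitted folds were above 1 in 21 of 35 members, against 51.2% of all tested genes. In bulk RNA a change in the number of cells of a type and a change in RNA per cell cannot be told apart.

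**Figure D1:**
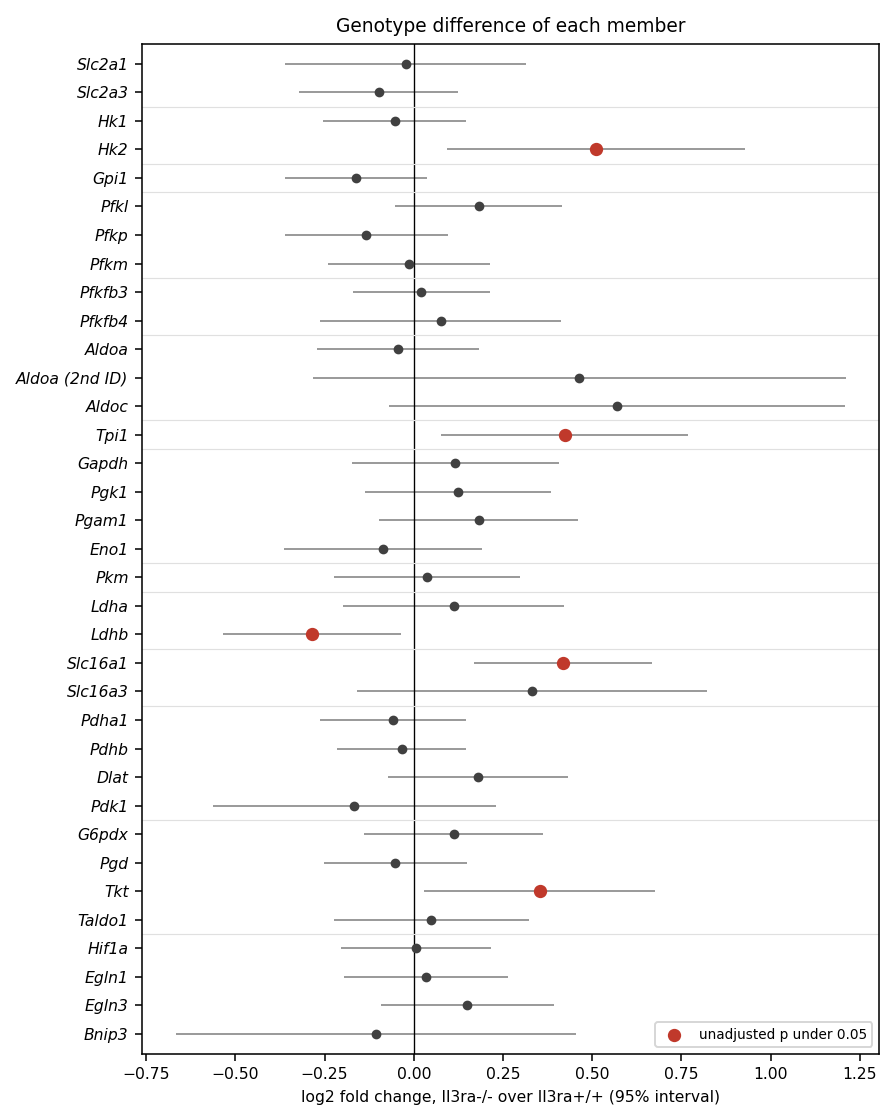
Log2 fold change (x axis, libraries labelled Il3ra-/- over Il3ra+/+) of the 35 members in pathway order (y axis), with 95% intervals from edgeR; red points have an unadjusted p under 0.05. Folds lie between -0.29 (Ldhb) and 0.57 (Aldoc) on the log2 scale, and no member passed the adjusted threshold.

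Promoter windows are shown for 4 genes, the 250 bases before the start site on GRCm38.p6 (RefSeq): Slc16a1 and Hk2, which had the smallest p-values among members with higher levels, and the lactate dehydrogenase genes Ldha and Ldhb, whose folds had opposite signs. Capitals mark ACGTG on either strand, a form of the core that HIF-1 binds. ACGTG is also part of the E-box CACGTG that MYC family factors bind. The other form of the HIF-1 core, GCGTG, was neither marked nor counted.

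Slc16a1, chr3:104638414-104638663, plus strand: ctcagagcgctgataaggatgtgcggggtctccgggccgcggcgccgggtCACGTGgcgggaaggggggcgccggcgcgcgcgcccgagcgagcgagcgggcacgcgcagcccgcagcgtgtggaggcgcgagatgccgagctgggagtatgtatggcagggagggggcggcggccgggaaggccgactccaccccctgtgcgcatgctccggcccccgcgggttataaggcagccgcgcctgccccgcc

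Hk2, chr6:82774455-82774704, minus strand: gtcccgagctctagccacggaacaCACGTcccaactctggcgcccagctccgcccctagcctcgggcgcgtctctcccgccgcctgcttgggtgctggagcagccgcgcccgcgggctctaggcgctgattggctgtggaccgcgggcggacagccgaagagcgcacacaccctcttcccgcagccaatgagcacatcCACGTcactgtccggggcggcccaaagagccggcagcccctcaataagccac

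Ldha, chr7:46845554-46845803, plus strand: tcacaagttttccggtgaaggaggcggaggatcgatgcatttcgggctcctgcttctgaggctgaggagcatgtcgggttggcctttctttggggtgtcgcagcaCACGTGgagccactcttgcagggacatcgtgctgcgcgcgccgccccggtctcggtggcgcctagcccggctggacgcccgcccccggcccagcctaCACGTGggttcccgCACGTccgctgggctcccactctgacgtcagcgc

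Ldhb, chr6:142507958-142508207, minus strand: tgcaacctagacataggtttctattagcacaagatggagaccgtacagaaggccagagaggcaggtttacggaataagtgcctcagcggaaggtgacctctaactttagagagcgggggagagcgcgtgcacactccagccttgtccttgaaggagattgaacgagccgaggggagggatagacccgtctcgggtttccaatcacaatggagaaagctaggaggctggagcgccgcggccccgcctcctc

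The Slc16a1 and Ldhb windows hold the unmarked GCGTG. The Ldha window holds ACGTG at 3 places, the Hk2 window at 2 and the Slc16a1 window at 1, and the Ldhb window holds none. A second RefSeq window of Ldha holds none either. Among 47 windows of the 33 members with an entry, 19 (40.4%) hold ACGTG on either strand, against 16.6% of all 32851 windows, and 6 (12.8%) hold CACGTG, against 6.02%. The windows were not matched for base composition. A match is a run of letters and shows neither binding nor a cause. The window does not sort the 5 members of smallest p: Tpi1 and Tkt, which had higher levels, hold no match in theirs, as Ldhb, which had lower levels, does not.

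Both glucose transporters of the set were expressed. Slc2a1, the basal glucose transporter GLUT1, had 11.9, 16.99 and 15.4 CPM in the libraries labelled Il3ra-/-, against 16.7, 13.1 and 15.2 CPM in the Il3ra+/+ libraries. Slc2a3, the high-affinity transporter GLUT3, had 20.2, 22.3 and 22.9 CPM, against 24.1, 22.8 and 23.2 CPM. The genotypes overlapped in both genes, and folds were 0.984 (95% interval 0.779 to 1.24) and 0.934 (0.800 to 1.09). Per kilobase Slc2a1 stood at 4.21 ± 0.750 CPM in the libraries labelled Il3ra-/- and 4.28 ± 0.519 in the Il3ra+/+ libraries, and Slc2a3 at 3.01 ± 0.193 and 3.22 ± 0.0923 CPM (SD, n = 3 each).

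Hexokinase, which traps glucose in the cell as glucose 6-phosphate, was mainly Hk1 in these thymocytes. Hk1 had 13.8 ± 0.688 CPM per kb in the libraries labelled Il3ra-/- and 14.3 ± 0.962 in the Il3ra+/+ libraries (SD, n = 3 each). It had 124, 118 and 112 CPM in the libraries labelled Il3ra-/-, against 124, 113 and 129 CPM in the Il3ra+/+ libraries, a fold of 0.964. Hk2 (chr6:82725025-82774454, minus strand), the inducible form known from activated lymphocytes and tumours, had 6.15, 7.39 and 8.70 CPM in the libraries labelled Il3ra-/-, against 5.99, 4.15 and 5.47 CPM in the Il3ra+/+ libraries. The lowest of the first 3 lay just above the highest of the others. Its fold was 1.42 (95% interval 1.07 to 1.90, edgeR adjusted p = 0.259). The share of Hk1 in the sum of both, per kilobase, was 93.4%, 91.8% and 89.997% in the libraries labelled Il3ra-/-, against 93.6%, 95.01% and 94.3% in the Il3ra+/+ libraries.

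At the next steps no member had an unadjusted p under 0.05. Gpi1, which turns glucose 6-phosphate into fructose 6-phosphate, had 194, 197 and 214 CPM in the libraries labelled Il3ra-/-, against 224, 223 and 230.1 CPM in the Il3ra+/+ libraries. These ranges did not overlap, yet the fold was 0.894 (95% interval 0.778 to 1.03, edgeR adjusted p = 0.441). Phosphofructokinase, which commits sugar to glycolysis, was expressed from all 3 of its genes. Pfkm, the muscle-type subunit, had 10.9 ± 0.368 CPM per kb in the libraries labelled Il3ra-/- and 10.97 ± 1.10 in the Il3ra+/+ libraries, the platelet-type Pfkp 6.97 ± 0.790 and 7.65 ± 0.442, and the liver-type Pfkl 7.30 ± 0.212 and 6.44 ± 0.804 (SD, n = 3 each). By the mean of the libraries labelled Il3ra-/- the highest of these 3 genes changes with the length used. By the mean of the Il3ra+/+ libraries Pfkm stood highest with either length. Pfkm held 43.2% of the sum per kilobase of all exons in the libraries labelled Il3ra-/- and 43.8% in the Il3ra+/+ libraries. With the longest transcript as the length it held 34.6% and 35.3%, and Pfkl 35.9% and 31.9%. Pfkm had 35.0, 37.5 and 36.4 CPM in the libraries labelled Il3ra-/-, against 39.1, 38.3 and 32.4 CPM in the Il3ra+/+ libraries. Pfkl had 49.4, 47.1 and 49.7 CPM, against 48.9, 38.5 and 41.5 CPM in the Il3ra+/+ libraries, and overlapped between the genotypes, as Pfkm and Pfkp did. Folds were 1.13 for Pfkl, 0.991 for Pfkm and 0.912 for Pfkp.

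Pfkfb3 and Pfkfb4 set the level of fructose 2,6-bisphosphate, the activator of phosphofructokinase. Pfkfb3 had 51.6, 50.2 and 49.6 CPM in the libraries labelled Il3ra-/-, against 49.7, 47.8 and 51.6 CPM in the Il3ra+/+ libraries (fold 1.01), and Pfkfb4 had a fold of 1.05 at 9.19 ± 1.42 and 8.73 ± 0.767 CPM (SD, n = 3 each). The genotypes overlapped in both genes. Aldolase transcripts came almost wholly from Aldoa, with 109, 109 and 119 CPM in the libraries labelled Il3ra-/- and 130.2, 103 and 115 CPM in the Il3ra+/+ libraries (fold 0.970). Aldoc, the brain-type aldolase, had 1.06, 1.26 and 1.05 CPM, against 0.889, 0.554 and 0.827 CPM. Aldoc did not overlap between the genotypes and had a fold of 1.48 with a wide interval of 0.953 to 2.31 (edgeR adjusted p = 0.396). The second Aldoa identifier (chromosome 7, 126800790 to 126809108) had 0.666 ± 0.159 CPM in the libraries labelled Il3ra-/- and 0.480 ± 0.0974 CPM in the Il3ra+/+ libraries (SD, n = 3 each, fold 1.38).

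Tpi1 (chr6:124810586-124814296, minus strand), triose phosphate isomerase, which lets both triose products of aldolase enter the lower pathway, had the largest fold among the glycolytic enzymes above 10 CPM. It had 89.1, 74.2 and 102 CPM in the libraries labelled Il3ra-/-, against 79.7, 52.6 and 65.5 CPM in the Il3ra+/+ libraries. Replicate 2 labelled Il3ra-/- lay below Il3ra+/+ replicate 1, so the genotypes overlapped. The fold was 1.34 (95% interval 1.05 to 1.70, edgeR adjusted p = 0.263), and without the filter on low counts Tpi1 was called (edgeR adjusted p = 0.0108), as 2 of the 35 members and 2.53% of all genes in that fit were.

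The enzymes from Gapdh on include the most abundant members per kilobase. Gapdh, which oxidises glyceraldehyde 3-phosphate, had 587, 582 and 717 CPM in the libraries labelled Il3ra-/-, against 650.4, 492 and 598 CPM in the Il3ra+/+ libraries. Pkm, pyruvate kinase, had 414, 423 and 480 CPM, against 476, 371 and 436 CPM. In both genes the genotypes overlapped, with folds of 1.08 and 1.03. Pgk1, phosphoglycerate kinase, had 175 ± 23.3 CPM in the libraries labelled Il3ra-/- and 161 ± 17.7 in the Il3ra+/+ libraries, Pgam1, phosphoglycerate mutase, 89.1 ± 15.0 and 78.6 ± 7.85, and Eno1, enolase, 308 ± 10.7 and 327 ± 54.9 CPM (SD, n = 3 each). Their folds were 1.09, 1.13 and 0.942, none with an unadjusted p under 0.05. Pgam1 had 78.7, 82.4 and 106 CPM in the libraries labelled Il3ra-/-, against 85.4, 70.0 and 80.3 CPM in the Il3ra+/+ libraries. Eno1 had 318, 297 and 308 CPM, against 375, 267 and 338 CPM, so that its Il3ra+/+ libraries enclosed the others. Gene counts do not separate the M1 and M2 splice forms of Pkm. Processed copies in the genome also bear on these levels: of the 50-base stretches of the annotated transcripts, 53.9% in Pgk1, 36.2% in Pgam1, 26% in Eno1, 25.8% in Pkm and 25.1% in Gapdh also occur in transcripts of other genes. The counting of reads that match several places is described in none of the sources used here.

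**Figure D2:**
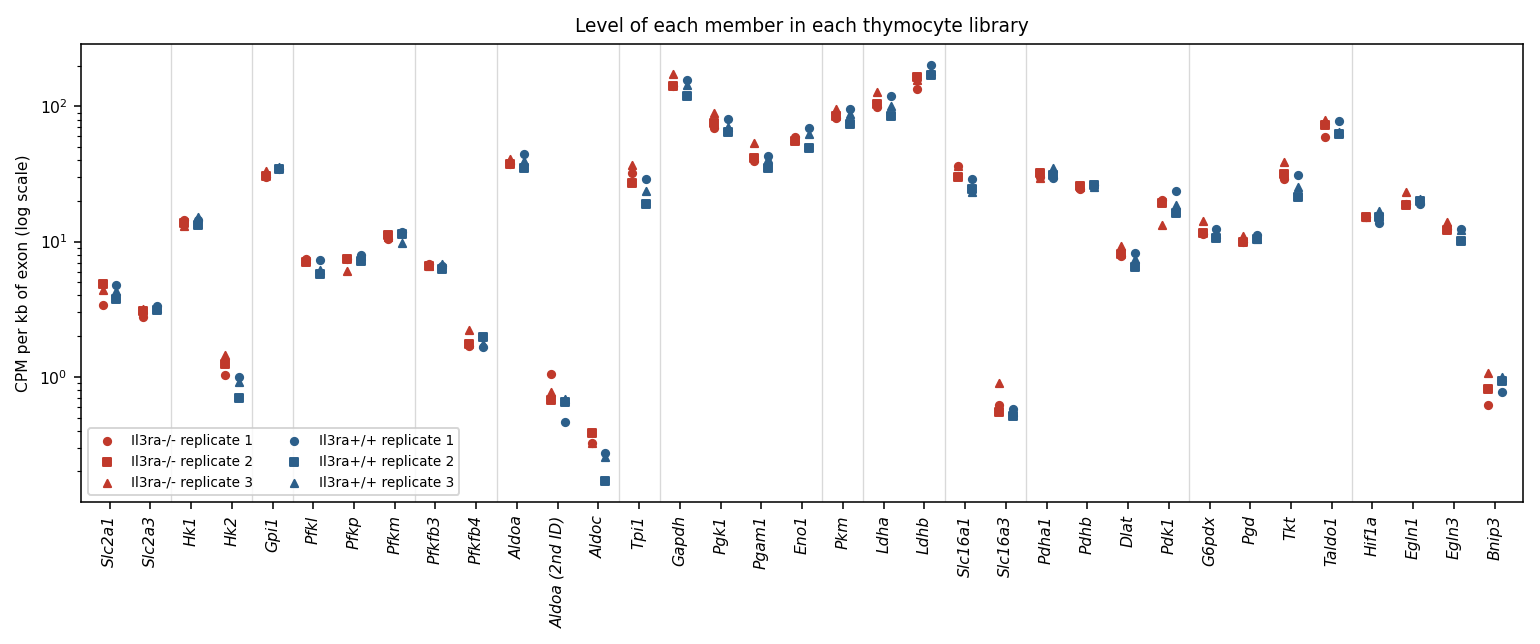
CPM per kb of exon (y axis, log scale) of the 35 members (x axis, in pathway order) in each of 6 libraries, red for libraries labelled Il3ra-/- and blue for Il3ra+/+. Gapdh, Ldha and Ldhb are the most abundant, at 102 to 186 CPM per kb on average in each genotype, and Aldoc, Slc16a3, Bnip3 and the second Aldoa identifier lie below 1 on average in both.

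Among the 8 families, the share of the tested gene differed most between genotypes, in percentage points, at lactate dehydrogenase. Ldha (chr7:46841475-46855627, plus strand), the form that favours lactate production, had 325, 343 and 421 CPM in the libraries labelled Il3ra-/-, against 393, 282 and 333 CPM in the Il3ra+/+ libraries, overlapping with a fold of 1.08. Ldhb (chr6:142490249-142507957, minus strand), the form that favours pyruvate, had 212, 260.5 and 245 CPM in the libraries labelled Il3ra-/-, against 319.8, 266 and 288 CPM in the Il3ra+/+ libraries. All 3 of the first lay below the lowest of the others, and the fold was 0.821 (95% interval 0.690 to 0.975, edgeR adjusted p = 0.286). The log2 fold of Ldhb was -0.285 with all libraries, -0.202 without replicate 1 labelled Il3ra-/- and -0.213 without Il3ra+/+ replicate 1. Without both of these Xist-high libraries it was -0.132, so the size of the Ldhb difference depended on them. Leaving out any other single library gave -0.294 to -0.346. Ldha made up 42.2%, 38.4% and 44.9% of both transcripts per kilobase in the libraries labelled Il3ra-/-, against 36.8%, 33.4% and 35.4% in the Il3ra+/+ libraries. The means differed by 6.61 percentage points, and every library labelled Il3ra-/- lay above every Il3ra+/+ library. With 3 libraries a side the two-sided exact permutation test cannot go below p = 0.1, which is the value it gave (0.2 after Benjamini-Hochberg adjustment over 8 families). Leaving out each library in turn kept the difference between 5.08 and 8.31 points. With the longest transcript as the length the shares were 52.1% and 45.2%, so which form stands higher is not settled by these counts. Of the 50-base stretches, 9.26% in Ldha and 21% in Ldhb also occur in transcripts of other genes.

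**Figure D3:**
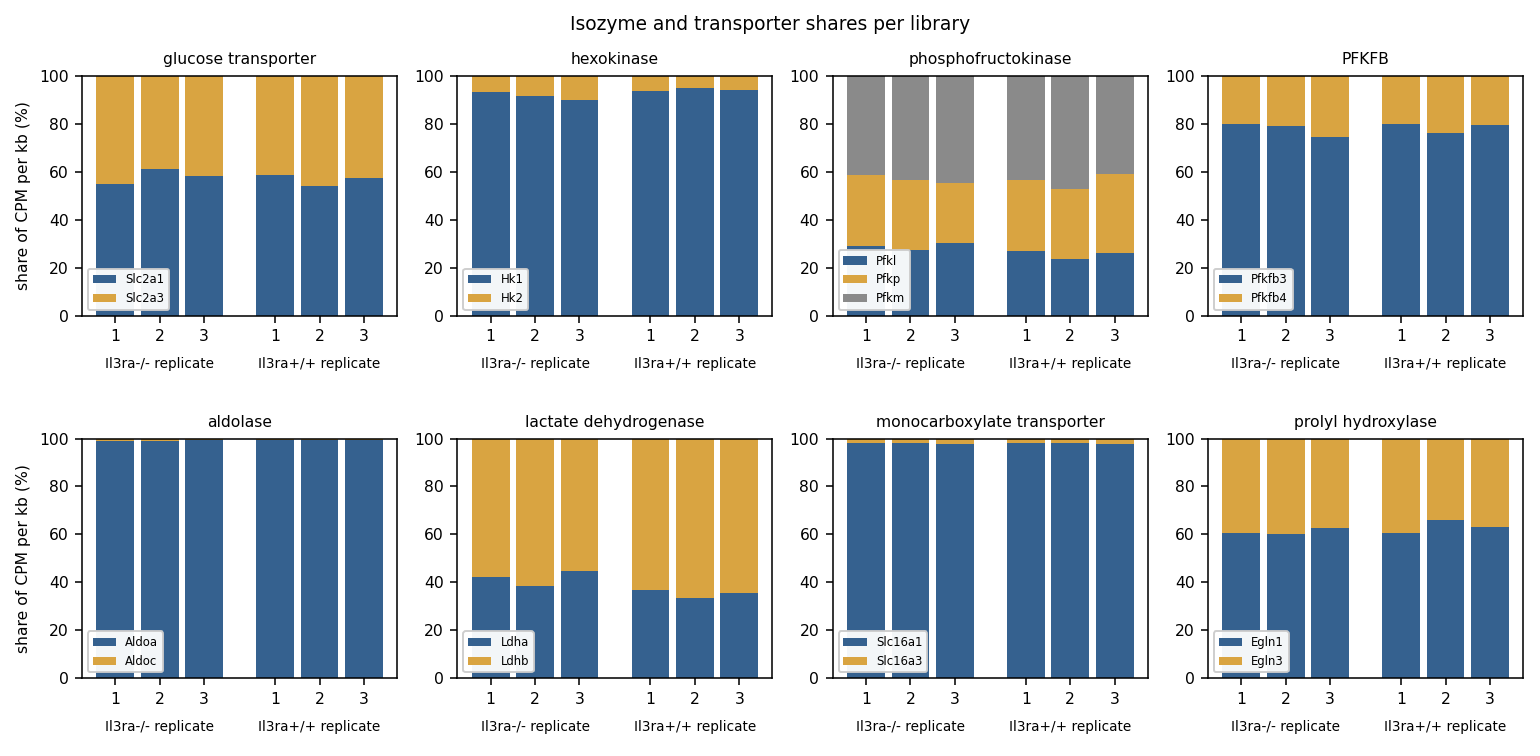
Share of each isozyme or transporter in its family (y axis, percent of the summed CPM per kb of exon) in each library (bars, replicates 1 to 3 labelled Il3ra-/- and then 1 to 3 of Il3ra+/+). Families hold only genes of the set, so Egln2 and Pfkfb2, for example, are not in the sums. Hk1, Aldoa and Slc16a1 hold 89.997% or more of their families in every library, and the Ldha share is 38.4% to 44.9% in the libraries labelled Il3ra-/- and 33.4% to 36.8% in the Il3ra+/+ libraries.

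Of the other 7 families, the same exact test gave p = 0.1 for the shares of Hk1, Pfkl and Aldoa, each without overlap, and p = 0.3 to 0.7 for Egln1, Slc16a1, Slc2a1 and Pfkfb3. The Hk1 share was 91.7% ± 1.68 in the libraries labelled Il3ra-/- and 94.3% ± 0.726 in the Il3ra+/+ libraries, the Pfkl share 29.1% ± 1.55 and 25.6% ± 1.80, and the Aldoa share 99.1% ± 0.124 and 99.4% ± 0.0853 (SD, n = 3 each). None of the 8 passed after adjustment, and none could in a design of this size. The families hold only genes of the set, so the Egln1 and Pfkfb3 shares leave out other expressed forms. Egln2 had 52.1 CPM on average in the libraries labelled Il3ra-/- and 60.2 in the Il3ra+/+ libraries, and Pfkfb2 8.62 and 8.70 CPM.

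Slc16a1 (chr3:104638668-104658462, plus strand), the lactate and pyruvate transporter MCT1, had the smallest p of the set. It had 161, 134 and 159.7 CPM in the libraries labelled Il3ra-/-, against 129, 109 and 102 CPM in the Il3ra+/+ libraries. The lowest of the first 3 stood just above the highest of the others. The fold was 1.34 (95% interval 1.12 to 1.59, log2 fold 0.42 with a standard error of 0.11), and edgeR's adjusted p was 0.165. It was called by DESeq2, without the filter on low counts (edgeR adjusted p = 0.0150) and without the Xist-high library of each genotype (edgeR adjusted p = 0.0470). Slc16a3, the lactate exporter MCT4 known from strongly glycolytic cells, had 3.30, 2.91 and 4.77 CPM, against 3.09, 2.72 and 2.93 CPM, and overlapped at a fold of 1.26. Slc16a1 held 98.0% ± 0.405 of both transporters per kilobase in the libraries labelled Il3ra-/- and 97.9% ± 0.196 in the Il3ra+/+ libraries (SD, n = 3 each).

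Among the genes that pass pyruvate into mitochondrial metabolism none had an unadjusted p under 0.05. Pdha1 and Pdhb, the E1 subunits of pyruvate dehydrogenase, had folds of 0.961 (95% interval 0.833 to 1.11) and 0.977 (0.861 to 1.11). Pdhb had 94.3, 99.9 and 98.2 CPM in the libraries labelled Il3ra-/-, against 101, 101 and 98.0 CPM in the Il3ra+/+ libraries. Dlat, the E2 subunit, had 38.1, 39.3 and 45.5 CPM, against 40.1, 31.7 and 36.6 CPM (fold 1.13). Pdk1, the kinase that switches the complex off and a known HIF-1 target, varied widely within each genotype, with 158, 149 and 103 CPM in the libraries labelled Il3ra-/- and 186, 128 and 146 CPM in the Il3ra+/+ libraries (fold 0.891).

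In the pentose phosphate pathway the oxidative enzymes had small folds and Tkt a larger one. G6pdx, glucose 6-phosphate dehydrogenase, the entry enzyme, had 38.2 ± 4.77 CPM in the libraries labelled Il3ra-/- and 35.3 ± 2.84 in the Il3ra+/+ libraries, and Pgd, the second NADPH-producing enzyme, 66.6 ± 4.22 and 69.0 ± 3.00 CPM (SD, n = 3 each), with folds of 1.08 and 0.965. Pgd had 64.5, 63.8 and 71.5 CPM in the libraries labelled Il3ra-/-, against 72.5, 67.5 and 67.1 CPM in the Il3ra+/+ libraries, which overlapped. Tkt (chr14:30548359-30574720, plus strand), transketolase, which links the pathway back to glycolysis, had 215, 232 and 284 CPM, against 228, 157 and 187 CPM in the Il3ra+/+ libraries. Only Il3ra+/+ replicate 1 of its group reached the range of the other genotype. The fold was 1.28 (95% interval 1.02 to 1.598, edgeR adjusted p = 0.302), and 0.0431 was its edgeR adjusted p without the Xist-high libraries. Taldo1, transaldolase, its partner in sugar exchange, had 129, 158 and 173 CPM, against 168, 135 and 141 CPM, with a fold of 1.03. Tkt and Pdhb lie on chromosome 14 with Il3ra, 16.2 Mb and 6.17 Mb from it, so a passenger difference near the targeted locus and the genotype cannot be told apart for them.

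None of the 4 oxygen-sensing genes of the set had an unadjusted p under 0.05. Hif1a, the regulated subunit of HIF-1, had 89.8, 89.8 and 90.1 CPM in the libraries labelled Il3ra-/-, against 80.5, 89.3 and 98.7 CPM in the Il3ra+/+ libraries, a fold of 1.004 (95% interval 0.867 to 1.16). Egln1, the main prolyl hydroxylase of HIF-1 alpha, had 68.8, 66.7 and 83.4 CPM, against 68.5, 71.4 and 73.9 CPM, and the hypoxia-induced hydroxylase Egln3 had 33.2, 32.5 and 36.9 CPM, against 33.2, 27.0 and 32.3 CPM. Their folds were 1.02 (95% interval 0.873 to 1.201) and 1.11 (0.938 to 1.31). Bnip3, a mitophagy receptor and HIF-1 target, was low, with 1.40, 1.85 and 2.40 CPM in the libraries labelled Il3ra-/- and 1.74, 2.09 and 2.25 CPM in the Il3ra+/+ libraries (fold 0.929, 95% interval 0.630 to 1.37), and 47.2% of its 50-base stretches also occur in transcripts of other genes. Hif1a messenger RNA does not measure HIF-1 activity, which is set mainly by protein stability.

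Within each genotype the members shared an order of libraries. Replicate 3 was the highest of the libraries labelled Il3ra-/- in 22 of 35 members (62.9%), against 36.7% of all tested genes. Il3ra+/+ replicate 1 was the highest of its group in 26 of 35 (74.3%, against 38.7% of all tested genes), and Il3ra+/+ replicate 2 was the lowest in 25 of 35 (71.4%, against 31.4%). The median deviation of the 35 from their mean over 6 libraries, in log2(CPM + 0.5), was -0.052, -0.014 and 0.12 in the libraries labelled Il3ra-/- and 0.070, -0.16 and -0.0095 in the Il3ra+/+ libraries. Gapdh, Pgk1, Pgam1, Ldha, Tpi1 and Tkt were all highest in replicate 3 labelled Il3ra-/- among the 6 libraries and lowest in Il3ra+/+ replicate 2. Pdk1, Pfkp and Hk1 were instead lowest of all in replicate 3 labelled Il3ra-/-, and Ldhb, Pdha1, Eno1, Pfkfb3 and Pdhb also lay below their means there.

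**Figure D4:**
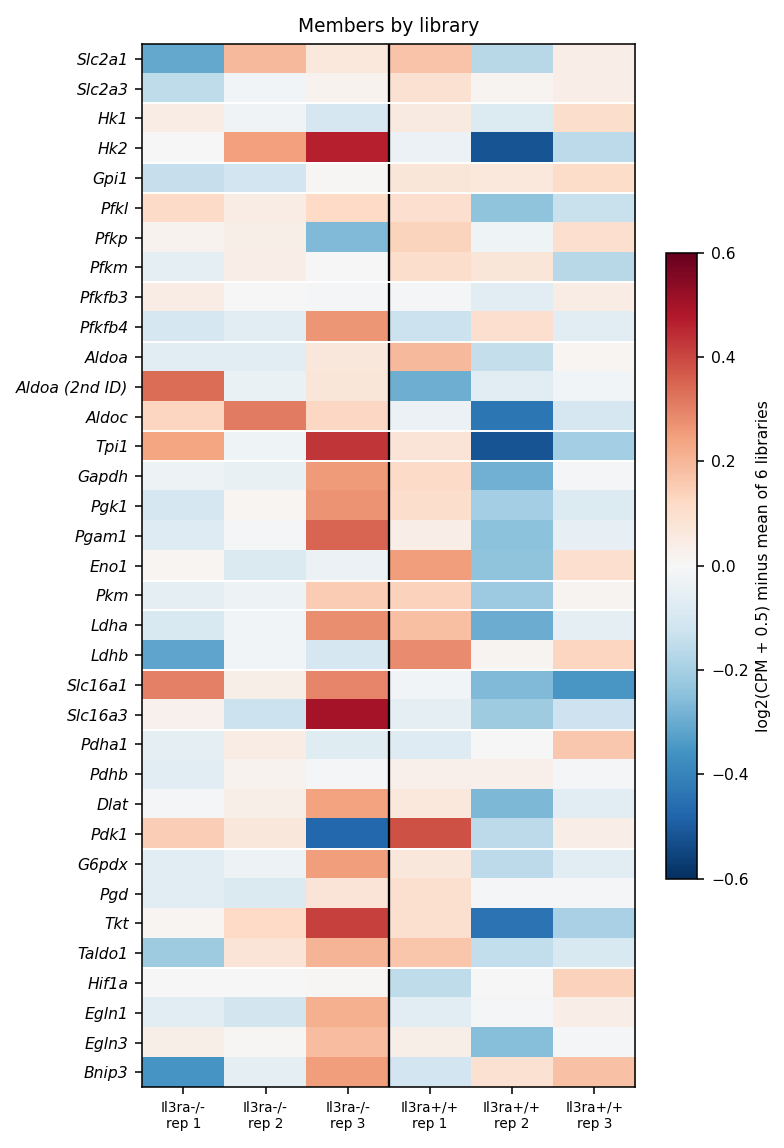
Deviation of each member (rows, pathway order) from its mean over 6 libraries in log2(CPM + 0.5), red above and blue below, for replicates 1 to 3 labelled Il3ra-/- (left) and 1 to 3 of Il3ra+/+ (right). Replicate 3 labelled Il3ra-/- is mostly red, with Pdk1, Pfkp, Hk1, Ldhb and Pdha1 among the blue ones, and Il3ra+/+ replicate 2 is mostly blue.

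Cell division genes and markers of other cells also differed between the libraries. The 20 cell division genes summed to 5648, 4220 and 5402 CPM in the libraries labelled Il3ra-/-, against 3621, 3166 and 3992 CPM in the Il3ra+/+ libraries. All 20 had higher levels in the libraries labelled Il3ra-/- at an unadjusted p under 0.05, beside 8.01% of all tested genes. After adjustment over all genes by edgeR 0 of the 20 passed. By these sums replicate 1 labelled Il3ra-/- and Il3ra+/+ replicate 3 were the highest of their genotypes, unlike in most members. The 20 genes had median deviations of 0.386, 0.0053 and 0.413, against -0.145, -0.440 and -0.151 in the Il3ra+/+ libraries. By that measure replicate 3 labelled Il3ra-/- and Il3ra+/+ replicate 1 were, by small margins, the highest of their genotypes, as in most members. Il3ra+/+ replicate 2 was the lowest of its genotype by either measure. At an unadjusted p under 0.05, 5 of 10 thymocyte markers had lower levels in the libraries labelled Il3ra-/-, beside 6.6% of all tested genes. Of the endothelial and fibroblast markers 2 of the 4 tested had higher levels there, beside 8.01%, and 0 in the other 6 lists had such a p. The lists of cell division genes and markers were chosen with earlier results of these data known. The 6 B cell markers summed to 26.7, 46.1 and 54.7 CPM in the libraries labelled Il3ra-/-, against 46.4, 38.8 and 45.3 CPM in the Il3ra+/+ libraries, and the 6 macrophage markers to 31.8, 50.8 and 62.4 CPM, against 52.3, 34 and 36.8 CPM. Both sums, like most members, were highest in replicate 3 labelled Il3ra-/- and in Il3ra+/+ replicate 1 of their genotypes and lowest of the Il3ra+/+ libraries in replicate 2. By median deviation the macrophage markers kept this order, with 0.215, -0.339 and -0.200 in the Il3ra+/+ libraries. The B cell markers, with 0.131, -0.104 and 0.194 there, were highest in Il3ra+/+ replicate 3 by that measure. The 6 dendritic cell markers summed to 12.4, 28.7 and 47.7 CPM, against 18.6, 20.4 and 19.2 CPM, which differed little among the Il3ra+/+ libraries. Epithelial markers summed to 8.94 to 11.8 and 6.52 to 10.05 CPM, and endothelial and fibroblast markers, mostly Pecam1, to 124 to 131 and 124 to 127 CPM. Erythroid markers summed to 2.03 to 19.2 and 4.98 to 33.0 CPM, and Slc4a1 (erythroid), Foxn1 (epithelial) and Pdgfra (fibroblast) were each at 0 in at least 1 library. The part of cell division and of other cells in the values of the set was not tested. Without replicate 3 labelled Il3ra-/- the median log2 fold of the 35 was -0.0086 and 2 members (Slc16a1 and Ldhb) had an unadjusted p under 0.05, and the same 2 remained without Il3ra+/+ replicate 2, and Slc16a1 and Hk2 without Il3ra+/+ replicate 3. Without the Xist-high library of each genotype the median was 0.10 and 10 members had an unadjusted p under 0.05, all with higher levels, beside 27.2% of the genes tested in that fit. That fit called 2 members, Slc16a1 and Tkt, beside 3.98% of its tested genes.

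The X-linked members can be read against the Xist-high libraries. Pgk1 had 156, 168 and 201 CPM in the libraries labelled Il3ra-/- and 180, 145 and 158 CPM in the Il3ra+/+ libraries, where the first value of each is the Xist-high library. Pdha1 had 113, 121 and 111 CPM, against 111, 117 and 131 CPM, and G6pdx had 35.1, 35.8 and 43.7 CPM, against 38.4, 32.7 and 34.9 CPM. In none of these 3 genes was the Xist-high library the highest in both genotypes.

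Related genes outside the set were read from 2 further lists, both chosen with earlier results of these data known. Of 40 genes of sugar metabolism 32 were tested and 0 were called by edgeR, with 2 at an unadjusted p under 0.05 (6.25%, against 14.6% of all tested genes), both with lower levels in the libraries labelled Il3ra-/-. Most of this list leaned the other way, with 21 of 32 fitted higher and a median log2 fold of 0.12, against 0.0082 over all tested genes. Txnip, which restrains glucose uptake, had 227, 249.6 and 229 CPM, against 276, 322 and 305 CPM in the Il3ra+/+ libraries (fold 0.783, edgeR adjusted p = 0.177). H6pd, a pentose phosphate dehydrogenase of the endoplasmic reticulum, had 119.7, 128 and 106 CPM, against 147, 157 and 134 CPM (fold 0.806, edgeR adjusted p = 0.216). Neither gene overlapped between the genotypes. Of the 32 tested genes of this list 7 did not overlap, against 20.3% of all tested genes. Hkdc1, Pgk2, Pklr, Ldhc, Fbp2 and Pdk4 were among the genes with too few counts to be tested.

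Among 20 further oxygen-sensing and hypoxia genes 19 were tested and 0 were called by edgeR, with 5 at an unadjusted p under 0.05 (26.3%, against 14.6% of all tested genes), 1 with higher and 4 with lower levels in the libraries labelled Il3ra-/-. Of the 19, 6 were fitted higher and 13 lower, with a median log2 fold of -0.059. The genotypes did not overlap in 7 of the 19, against 20.3% of all tested genes. The list was chosen with earlier results of these data known, so these shares describe it and do not test it. Ddit4, an inhibitor of mTORC1 induced by hypoxia, glucocorticoids and other stress, had 59.0, 50.6 and 63.4 CPM, against 68.9, 91.1 and 105 CPM in the Il3ra+/+ libraries. All 3 of the first lay below the others, with a fold of 0.654 (95% interval 0.522 to 0.819, edgeR adjusted p = 0.151, DESeq2 adjusted p = 0.00623). Hif1an, the asparagine hydroxylase that dampens HIF-1, had 60.2 ± 3.43 CPM in the libraries labelled Il3ra-/- and 70.3 ± 5.97 in the Il3ra+/+ libraries, and the prolyl hydroxylase Egln2 52.1 ± 2.18 and 60.2 ± 3.09 CPM (SD, n = 3 each). P4ha1, a collagen prolyl hydroxylase, had 28.0, 24.3 and 22.8 CPM, against 26.3, 32.7 and 31.7 CPM, overlapping at a fold of 0.827. Vegfa, the vascular growth factor and HIF-1 target, had 12.3, 8.69 and 8.55 CPM, against 6.74, 7.65 and 7.002 CPM, a fold of 1.38 (edgeR adjusted p = 0.254). DESeq2 called 2 genes of these lists, Ddit4 and Txnip (adjusted p = 0.0375 for Txnip).

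**Figure D5:**
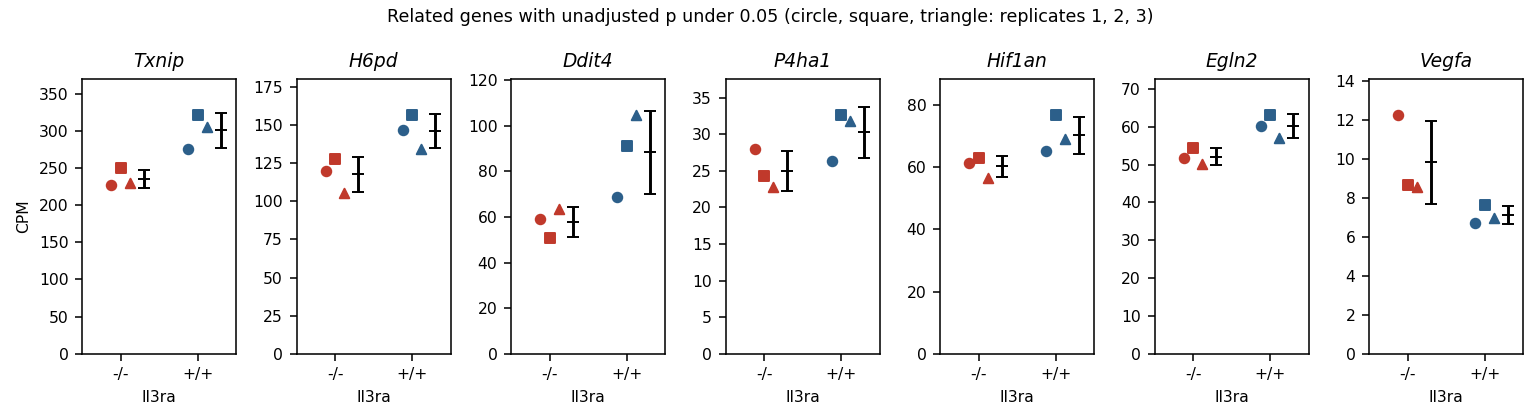
CPM (y axis) of the 7 related genes with an unadjusted p under 0.05, in libraries labelled Il3ra-/- (red, left) and Il3ra+/+ (blue, right), each point a library and each bar the mean ± SD of 3. Txnip, H6pd, Ddit4, Hif1an and Egln2 lie lower and Vegfa higher in every library labelled Il3ra-/- than in any Il3ra+/+ library, and P4ha1 overlaps. Of all tested genes 20.3% did not overlap.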

How the data were processed

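RNA of thymocytes from 6 mice was sequenced after TruSeq Stranded mRNA library preparation, per the labels' protocols. STAR 2.5.4b and featureCounts on GRCm38 are named in the submitters' processing notes. The deposited values are raw counts per Ensembl gene, per the file headers. Annotation release, counting strand and the handling of multi-mapped reads: not given in the sources used here.

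Symbols, positions and exon lengths came from GENCODE M21 (GRCm38). Genes were filtered with filterByExpr and TMM-scaled, and genotypes were compared with edgeR 4.0.16 (quasi-likelihood, robust, no covariate, R 4.3.3), adjusted over 18690 genes at 0.05. Recovery of known changes was tested on simulated data. Isozyme shares used exact permutation tests over libraries (SciPy 1.17.1). The alternatives were DESeq2 1.42.0, limma-voom 3.58.1, RLE scaling, 2 filters, blocking on replicate number, fits without each library or without both Xist-high libraries, and another gene length. The members and lists were chosen with earlier results of these data known. All 35 members are named; values in every library are given for the main isozyme of each step, the 12 members of smallest p, and others added after their values were seen, and related genes are named where the unadjusted p was under 0.05. Counts per library were 55747682 to 82684219. Each library is 1 mouse, so the tests set the genotype difference against the spread between mice. With no covariate, that spread includes any difference between the Xist-high and the other libraries of a genotype. Replicates of a genotype differed by 40.7 to 96.4 in chi-square per degree of freedom, so none was taken as a duplicate.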

Additional observations from a re-analysis of the deposited data

How the results depend on the processing

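Over all genes edgeR called 17 genes. DESeq2 called 581, edgeR without the filter on low counts 840, edgeR with the replicate block 9 and edgeR without the Xist-high libraries 762, and leaving out each library gave 8 to 29. Of the 35 members 0 were called, against 1 by DESeq2, 2 without the filter (Slc16a1 and Tpi1) and 2 without the Xist-high libraries (Slc16a1 and Tkt). Of the further lists 0 genes were called, against 2 by DESeq2, 1 without the filter (Ddit4) and 3 without the Xist-high libraries (P4ha1, Ddit4 and Pgls). Leaving out each library in turn gave 0 calls in both. The cause of these differences was not tested. The median log2 fold of the members was -0.0086 to 0.11 when libraries were left out.

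Members with folds near 1 changed sign. Hif1a had a log2 fold of -0.0011 by DESeq2, -0.0018 with RLE scaling and -0.064 without the Xist-high libraries, a setting that gave 0.20 for Slc2a1, 0.0071 for Pgd, 0.070 for Aldoa and 0.062 for Pfkm. When libraries were left out the log2 folds ran from -0.13 to 0.11 in Slc2a1, -0.32 to 0.064 in Bnip3, -0.094 to 0.038 in Pfkm, -0.28 to 0.0021 in Pdk1, -0.0086 to 0.24 in Ldha, -0.046 to 0.16 in Taldo1, -0.073 to 0.10 in Egln1, -0.052 to 0.12 in Pkm, -0.059 to 0.15 in Pfkfb4, -0.21 to 0.025 in Eno1, -0.12 to 0.048 in Aldoa, -0.065 to 0.083 in Hif1a, -0.0020 to 0.049 in Pfkfb3 and -0.11 to 0.011 in Pdha1. The difference in share ran from -0.44 to 2.77 percentage points for Slc2a1 and from -1.74 to 1.07 for Pfkfb3. The shares of Hk1, Pfkl, Aldoa, Ldha, Slc16a1 and Egln1 kept their direction in these fits, with the longest transcript as length and without the Xist-high libraries.

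Same-numbered libraries were not treated as paired in the main fit. The correlations of their deviations from the group means were -0.10, 0.09 and -0.12, and differently numbered libraries gave -0.14 to 0.19. With 3 libraries a genotype these values cannot decide whether the numbers mark pairs. With the replicate block 0 members were called and 3 (Slc16a1, Hk2 and Tpi1) had an unadjusted p under 0.05, beside 11.4% of all tested genes. The block leaves the share differences as they were, and an exact sign-flip test over 3 pairs cannot go below p = 0.25.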
